A study of Mus musculus with 18 samples.

Results

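Transcription factors that set or maintain the identity of sensory neurons were followed in mouse dorsal root ganglia, where the cell bodies of these neurons lie. The 10 genes were Scrt1, Cux2, Pou4f1, Isl1, Runx1, Runx3, Etv1, Prdm12, Tlx3 and Shox2, found by gene symbol, and all 10 were among the 15730 genes of the count table. The genes were chosen by name with their fold changes between injured and sham ganglia under saline (SNA_Saline against Sham_Saline) already known. Those changes are therefore described here, and calls in that comparison are counted but not read as evidence. RNA was sequenced from sciatic L4-L6 ganglia of C57BL/6 mice aged 6-8 weeks, collected 24 hours after surgery, with each sample a pool from 2 mice and 3 samples in each of 6 groups. SNA_Saline had a sciatic nerve injury with saline, and Sham_Saline had the sham operation with saline. SNA_NAC had the nerve injury with 30 mM N-acetyl-cysteine (NAC), an antioxidant, and Sham_H2O2 had the sham operation with 13 mM hydrogen peroxide, an oxidant. DCA had a dorsal column injury, which cuts the central branch of the same neurons in the spinal cord, and LAM had the laminectomy that exposes the cord without cutting it. The labels name no transgene or deletion, and whole ganglia hold neurons and glia together.

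Sensory neurons are born from neural crest and are given a subtype by a small set of transcription factors, several of which stay on in the adult. Isl1, a LIM homeodomain protein, and Pou4f1, a POU homeodomain protein, are expressed broadly and close the neurogenic programme. Runx1 and Prdm12 act in pain-sensing neurons, Runx3 and Etv1 in muscle-sensing (proprioceptive) neurons, and Shox2 in touch-sensing neurons. Tlx3 is a homeodomain factor needed for several nociceptor genes, Scrt1 is a neuronal zinc-finger repressor of the Snail superfamily, and Cux2 is a cut-type homeodomain protein.

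Total counts ran from 6472476 to 42435331 per sample. Atf3, a gene induced in sensory neurons by peripheral axon injury, stood at 444 ± 21.5 CPM (counts scaled to library size with TMM factors, SD, n = 3) in SNA_Saline and 447 ± 33.0 in SNA_NAC, against 62.6 ± 8.81 in Sham_Saline and 98.8 ± 20.7 in Sham_H2O2, so the sciatic injury labels held. In DCA against LAM it was not called (log2 fold change 1.14, edgeR adjusted p = 0.172), so the dorsal column label was not checked by it. The summed level of 10 sensory neuron markers, all in the table, ran from 16518 to 24145 CPM, and its group medians from 18355 to 19949, which marks the tissue as ganglion. Among spinal cord and motor neuron markers 3 of 6 were in the table, and Chat, Mnx1 and Olig2 were not. Lymphocyte markers, of which 4 of 8 were in the table (not Cd3e, Cd3g, Cd8a or Nkg7), summed to 3.46 to 8.62 CPM. Muscle markers summed to between 5.90 and 1087 CPM within Sham_Saline alone. In bulk ganglia, fewer cells of a type and less RNA per cell cannot be told apart. P-values of the main fit set a change against the spread between the 3 pools within groups, estimated over all 18 samples together.

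The libraries differed in how strongly reads favoured GC-rich transcripts. Each library was given a slope, fitted over all genes, of its log2 CPM relative to the mean of the 18 samples on GC share (per SD of GC share). It was -0.04, 0.43 and 0.16 in Sham_Saline replicates 1 to 3. The slope was -0.07, -0.17 and 0.12 in SNA_Saline, -0.01, 0.14 and -0.22 in Sham_H2O2, 0.03, -0.17 and -0.09 in SNA_NAC, -0.19, -0.05 and -0.08 in LAM, and 0.04, -0.08 and 0.25 in DCA. Sham_Saline replicate 2 therefore stood apart, and Sham_Saline had the highest group median. Sham_Saline replicate 1 also stood apart in another way: without it, the number of genes called between Sham_Saline and LAM went from 11 to 5009. The main values that rest on these libraries are followed by the value without them.

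Measured on the longest transcript of a gene (GENCODE M21, build GRCm38, which is mm10), GC share placed the members across nearly the whole range. Tlx3 (ENSMUSG00000040610, chr11:33200752-33203589, minus strand) had 67.3%, the 99.9th percentile of all genes, and Scrt1 (ENSMUSG00000048385, chr15:76516203-76522499, minus strand) had 64.8%, the 99.7th percentile. Etv1 (ENSMUSG00000004151, chr12:38779380-38870484, plus strand) had 39.8%, the 5.8th percentile, and Isl1 (ENSMUSG00000042258, chr13:116298281-116309689, minus strand) had 45.7%. The other members were Prdm12 (ENSMUSG00000079466, chr2:31640037-31655795, plus strand, 57.7%), Runx3 (ENSMUSG00000070691, chr4:135120652-135177990, plus strand, 55.9%) and Cux2 (ENSMUSG00000042589, chr5:121856366-122050102, minus strand, 55.5%). Pou4f1 (ENSMUSG00000048349, chr14:104461676-104467999, minus strand) and Shox2 (ENSMUSG00000027833, chr3:66971727-66981771, minus strand) each had 49.8%, and Runx1 (ENSMUSG00000022952, chr16:92601466-92826149, minus strand) had 46.4%. The median of all genes was 49.6%. Cux2, Runx1, Runx3, Prdm12 and Shox2 overlap an annotated gene on the opposite strand, and since the use of strand in the counting is not given in the sources used here, their values may include reads of that partner.

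A whole-transcript share hides a split in several of these genes between coding sequence and untranslated regions. Pou4f1 had 72.1% GC in its coding sequence and 41.0% in its untranslated regions, Runx1 had 63.4% and 41.0%, Shox2 62.6% and 43.6%, Isl1 53.7% and 40.0%, and Etv1 50.3% and 36.9%. Scrt1 (66.8% and 64.2%) and Tlx3 (67.9% and 66.5%) were GC-rich throughout. Coding GC share is illustrated for 5 members by stretches of 120 coding bases. Each is the codon-aligned window whose GC share comes closest to that of its whole coding sequence, so the stretches only restate that share. They are written 5′ to 3′ on the coding strand from GENCODE M21 transcripts, with G and C in capitals, for Tlx3 (coding bases 289 to 408, 68.3% GC), Scrt1 (286 to 405, 66.7%), Pou4f1 (55 to 174, 72.5%), Isl1 (613 to 732, 53.3%) and Etv1 (205 to 324, 60 of 120 bases).
Tlx3: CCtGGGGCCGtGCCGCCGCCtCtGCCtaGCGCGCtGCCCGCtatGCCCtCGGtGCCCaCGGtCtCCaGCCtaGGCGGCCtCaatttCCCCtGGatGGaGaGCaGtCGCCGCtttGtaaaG
Scrt1: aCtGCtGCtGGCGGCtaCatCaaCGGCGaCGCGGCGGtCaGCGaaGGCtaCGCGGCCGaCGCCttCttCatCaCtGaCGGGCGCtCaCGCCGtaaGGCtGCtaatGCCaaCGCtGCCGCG
Pou4f1: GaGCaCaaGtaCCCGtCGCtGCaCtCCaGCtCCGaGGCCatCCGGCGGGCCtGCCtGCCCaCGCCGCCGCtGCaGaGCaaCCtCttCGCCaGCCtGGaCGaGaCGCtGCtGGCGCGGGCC
Isl1: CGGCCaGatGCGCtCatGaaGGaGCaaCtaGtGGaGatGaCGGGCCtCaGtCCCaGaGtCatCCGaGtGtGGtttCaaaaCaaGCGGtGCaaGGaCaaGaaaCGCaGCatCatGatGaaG
Etv1: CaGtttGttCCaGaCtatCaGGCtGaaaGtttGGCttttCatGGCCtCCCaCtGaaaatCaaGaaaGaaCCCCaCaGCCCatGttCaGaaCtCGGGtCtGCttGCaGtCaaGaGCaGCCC
The windows of Pou4f1, Tlx3 and Scrt1 held 87, 82 and 80 G or C bases, against 64 in Isl1 and 60 in Etv1.

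Levels per transcript length were compared in the authors' FPKM, which scale reads to transcript length and library size. Over the 18 samples Pou4f1 was highest, at 53.6 ± 7.99 FPKM (SD, n = 18), followed by Prdm12 at 35.8 ± 5.23, Isl1 at 23.9 ± 2.80 and Etv1 at 13.96 ± 2.90. Runx1 (7.96 ± 0.921) and Shox2 (7.44 ± 1.33) did not differ beyond their spread, and neither did Shox2 and Scrt1 (5.30 ± 2.58). Tlx3 (2.79 ± 2.25), Runx3 (1.53 ± 0.244) and Cux2 (0.807 ± 0.187) were lowest, and the ranges of Tlx3 and Runx3 overlapped. In mean level the broad factor Pou4f1 thus stood above all factors of single subtypes. The other broad factor, Isl1, stood above all of these except the nociceptor factor Prdm12. The FPKM table holds 11 rows under member symbols, and the extra Cux2 row is the other multiplied by 20.4 in every sample, so only the row of the same gene identifier was used.

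**Figure D1:**
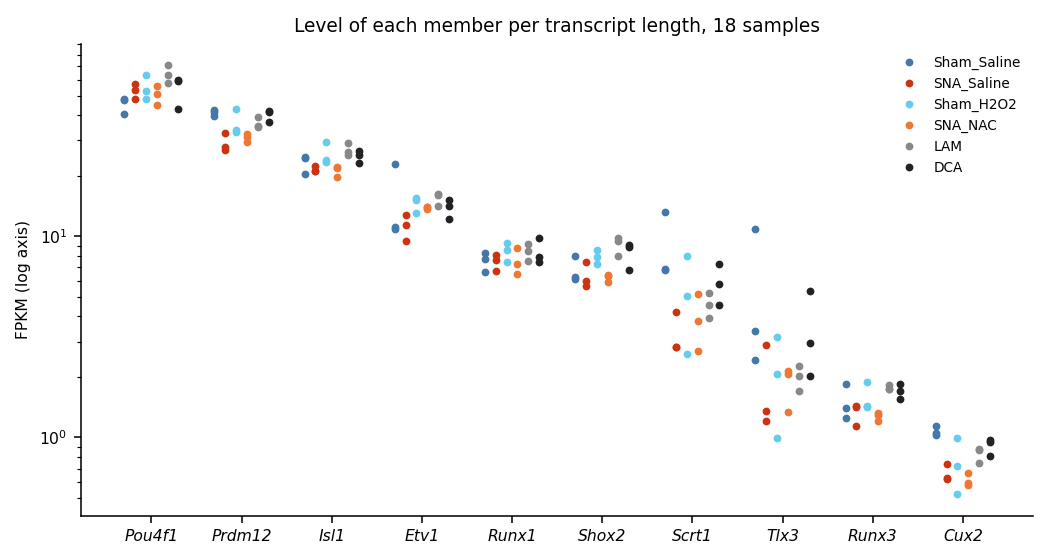
FPKM of the 10 members in each of 18 samples, on a log axis, ordered by the mean over samples and coloured by group. Pou4f1, Prdm12 and Isl1 lie highest, and Scrt1 and Tlx3 have a Sham_Saline sample far above the rest (13.3 and 10.9 FPKM).

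After sciatic injury under saline, 8 of the 10 members had a negative log2 fold change against sham, with a median of -0.26 beside -0.03 over all genes. Scrt1 stood at 27.4, 53.6 and 26.9 CPM in Sham_Saline and at 11.7, 11.7 and 16.9 in SNA_Saline. Every sham sample was above every injured one, with a log2 fold change of -1.42 (SE 0.34). Tlx3 stood at 3.72, 16.8 and 5.09 CPM in Sham_Saline and 1.91, 2.16 and 4.42 in SNA_Saline, a log2 fold change of -1.59 that rested on counts as low as 20. The groups overlapped, and the sham mean was set by replicate 2, the sample with the steepest GC slope. Without that sample the value for Tlx3 was -0.61 and that for Scrt1 -1.01.

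Prdm12 was the most even of the group. It stood at 102, 106 and 96.0 CPM in Sham_Saline and at 70.3, 68.6 and 80.9 in SNA_Saline, a log2 fold change of -0.47 (SE 0.10), and was -0.46 and -0.44 without Sham_Saline replicate 1 or 2. Cux2 stood at 7.01, 8.55 and 7.06 CPM in sham and 4.42, 4.32 and 5.20 after injury, a log2 fold change of -0.70 (SE 0.20) with no overlap, and -0.75 and -0.59 without Sham_Saline replicate 1 or 2. Pou4f1 was the only member whose injured samples all lay above the sham samples, at 220.3, 239 and 194 CPM against 193, 164 and 188, a log2 fold change of 0.26. Etv1 stood at 134, 65.7 and 62.8 CPM in sham and 68.7, 77.7 and 55.7 after injury, so its value of -0.38 came from Sham_Saline replicate 1 and was 0.07 without it. Isl1 (-0.07), Runx1 (0.03), Runx3 (-0.15) and Shox2 (-0.06) overlapped between the groups. In counts alone, 3 members were lower and 1 higher without overlap, where 8.8% of all genes were lower and 10.3% higher in that way, and 2 members (Scrt1 and Prdm12) were called beside 2.73% of all genes. With the replicate block 1 was called (Prdm12). Nothing is read from these counts, because the same values chose the list.

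**Figure D2:**
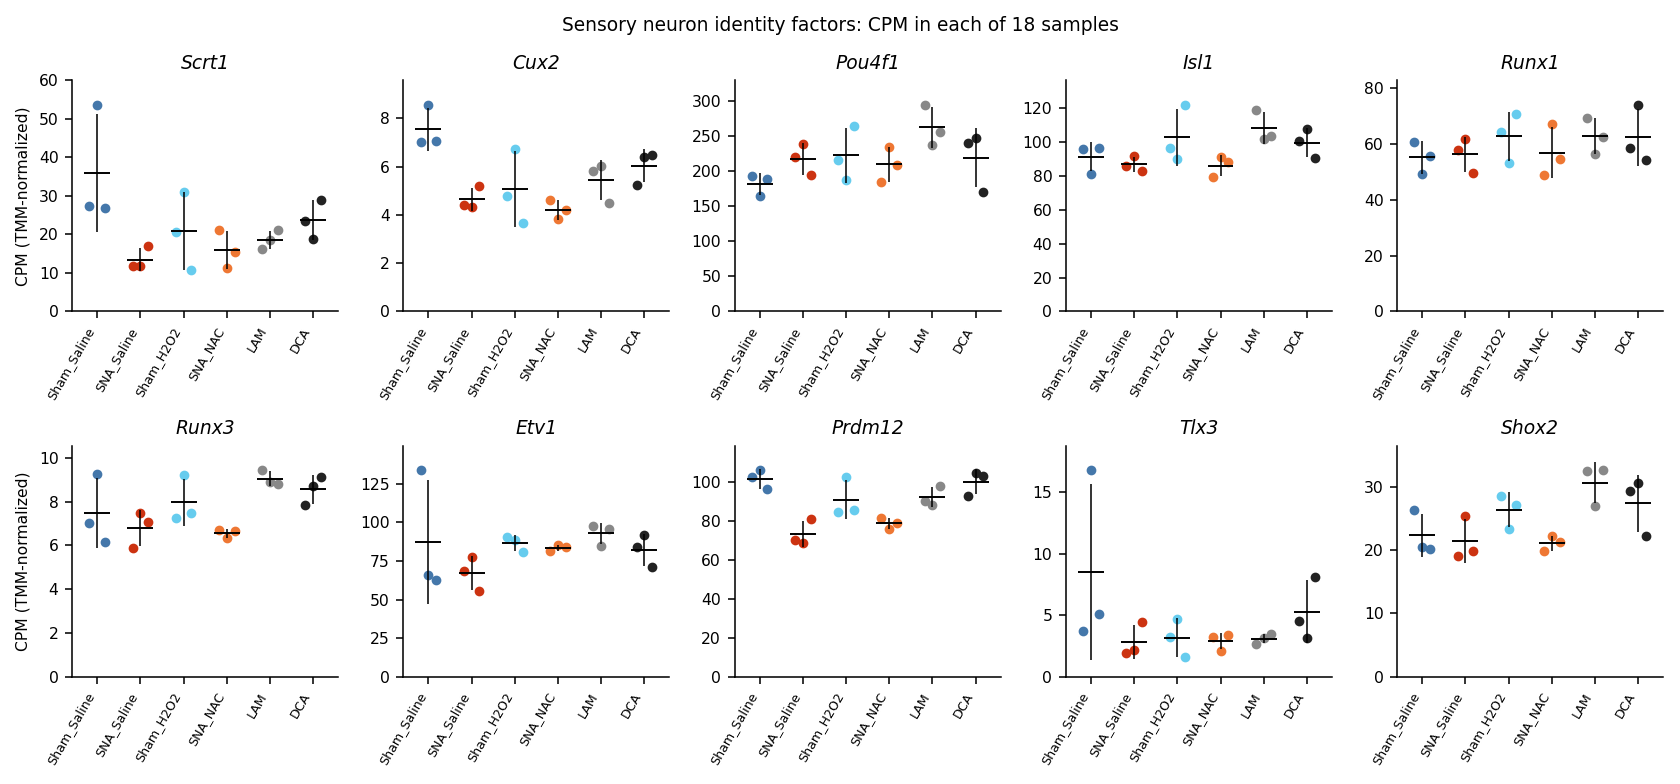
TMM-normalized CPM of each member in each sample, with the group mean (horizontal line) and SD (vertical line, n = 3). Scrt1 and Tlx3 in Sham_Saline have 1 sample (replicate 2) at 53.6 and 16.8 CPM, far above their group. Prdm12 lies lower in each sciatic injury group than in its sham group. The gap is narrow in the second pair (highest SNA_NAC sample 81.4 CPM, lowest Sham_H2O2 sample 84.6). The first pair chose the list, and adjusted values of Prdm12 overlapped in both pairs.

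Several members varied with the GC slope of the library. Because SNA_Saline and Sham_Saline values chose the list, and Sham_Saline had the highest median slope, the relation was tested only in the other 12 samples. There log2 CPM of Tlx3 rose with the slope (Pearson r = 0.92, permutation p = 1e-05, the smallest that the permutations can give, Spearman rho = 0.81, permutation p = 0.00212), and so did Scrt1 (r = 0.90, permutation p = 0.00013, rho = 0.92, permutation p = 7e-05). Pou4f1 ran the other way (r = -0.84, permutation p = 0.00076, rho = -0.71, permutation p = 0.0119), as did Runx1 (r = -0.68, permutation p = 0.0143, rho = -0.70, permutation p = 0.0142). Benjamini-Hochberg adjusted permutation p-values over the 10 members were 0.0001, 0.00065, 0.00253 and 0.0358 for r and 0.0106, 0.0007, 0.0352 and 0.0352 for rho in these 4. Cux2 had r = 0.61 (adjusted permutation p = 0.068) and rho = 0.69 (adjusted permutation p = 0.0352), and Isl1 r = -0.59 (adjusted permutation p = 0.0757) and rho = -0.57. Prdm12 (r = 0.52), Etv1 (-0.52), Shox2 (-0.38) and Runx3 (0.30) had adjusted permutation p-values of 0.106 to 0.347 for r. The slopes were fitted over all genes of the same counts, so the most GC-rich members could be expected to rise with them. The permutations exchanged samples between groups, and the share of all genes that correlated as strongly was not computed. These p-values are therefore no evidence of a trait particular to the members.

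The strength of the relation did not simply follow GC share. Pou4f1, near the median of all genes, had a stronger relation than Etv1, the most AT-rich member. Leaving out the pair of samples farthest from the median slope gave 0.83 for Tlx3, 0.86 for Scrt1, -0.66 for Pou4f1, -0.66 for Runx1, -0.60 for Isl1, 0.34 for Cux2, 0.14 for Prdm12, -0.17 for Etv1, -0.15 for Shox2 and -0.11 for Runx3, so the values of the last 5 rested on those samples. Within groups, with group means removed, r was 0.95 for Tlx3, 0.93 for Scrt1, -0.97 for Pou4f1, -0.95 for Isl1 and -0.90 for Runx1, so replicates of the same treatment differed along the slope as well. Over all 18 samples, as a description, r was 0.94 for Tlx3, 0.86 for Scrt1, 0.73 for Cux2, 0.54 for Prdm12, 0.25 for Runx3, -0.48 for Shox2, -0.49 for Etv1, -0.56 for Isl1, -0.73 for Runx1 and -0.84 for Pou4f1.

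Fold changes in the injury comparison also varied with GC share. Across the 10 members the log2 fold change under saline correlated with GC share at r = -0.79, a description across genes that share 6 libraries. Offsets that remove each sample's trend on GC share and length brought that value to -0.40. The change in Scrt1 moved from -1.42 to -0.71 (SE 0.13), in Tlx3 from -1.59 to -0.75 (SE 0.24), in Cux2 from -0.70 to -0.35 (SE 0.15) and in Prdm12 from -0.47 to -0.12 (SE 0.17). The AT-rich members moved the opposite way, Etv1 from -0.38 to -0.54 (SE 0.11) and Isl1 from -0.07 to -0.22 (SE 0.06). Runx3 went from -0.15 to 0.19, Runx1 from 0.03 to -0.04, and Pou4f1 (0.26 to 0.28) and Shox2 (-0.06 to -0.07) stayed near their first values.

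**Figure D3:**
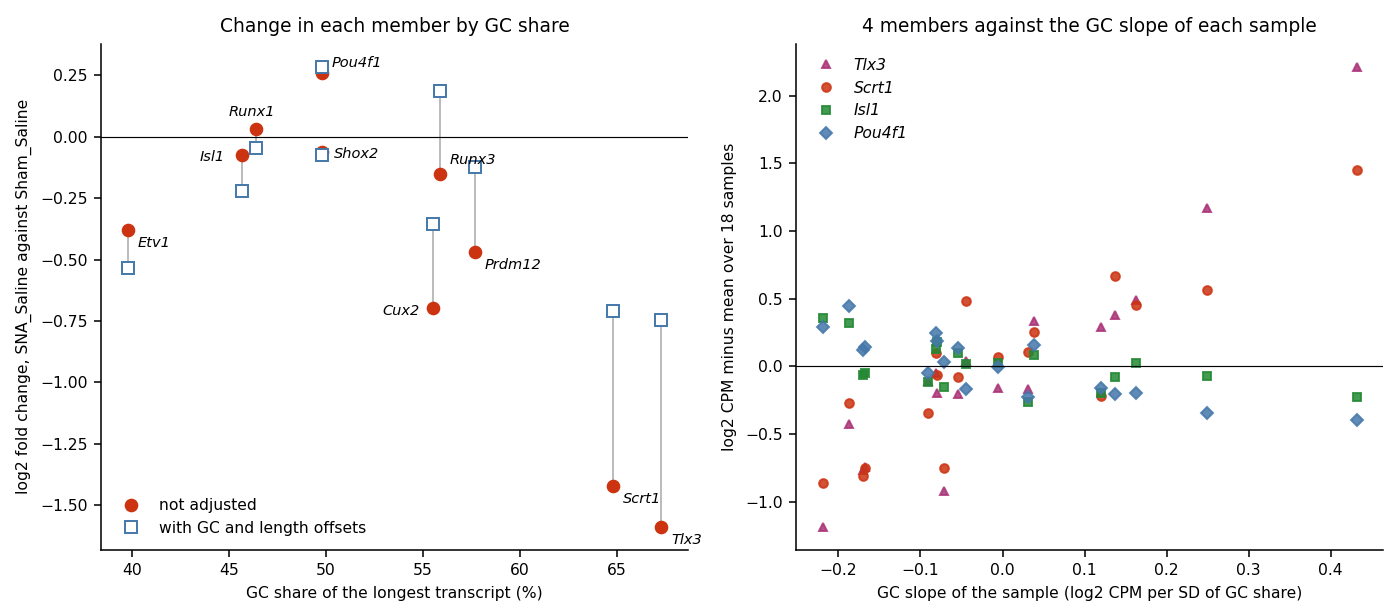
Left, log2 fold change of each member in SNA_Saline against Sham_Saline by the GC share of its longest transcript, without adjustment (filled circles) and with GC and length offsets (open squares). Right, log2 CPM minus its mean over samples for 4 members against the GC slope of each sample: Tlx3 and Scrt1 climb with the slope, while Pou4f1 and Isl1 descend.

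With the sample trends removed, some members differed less after injury and others more. Adjusted Scrt1 stood at 26.2, 24.3 and 21.5 CPM in Sham_Saline and 13.7, 15.6 and 15.0 in SNA_Saline, so the outlying sham value was gone while the groups remained apart. The fitted level was 38.9% lower after injury with offsets, and 62.7% lower without them. Its log2 fold change was -0.65 and -0.70 without Sham_Saline replicate 1 or 2, so neither of these libraries decided it. Etv1 stood at 111, 94.6 and 77.3 adjusted CPM in sham and 65.4, 66.6 and 64.0 after injury, and Isl1 at 99.6, 94.3 and 101 against 81.8, 86.0 and 85.2. For both genes, injured and sham samples overlapped before adjustment and were apart after it. The value for Etv1 was then -0.40 without Sham_Saline replicate 1. Cux2 kept its separation at 5.51, 6.28 and 7.08 against 4.81, 4.90 and 4.96 adjusted CPM, whereas Prdm12 lost it, at 109, 61.4 and 79.3 against 75.5, 83.6 and 69.8. In adjusted values 4 members were lower without overlap beside 10.4% of all genes, and 3 were called (Scrt1, Isl1 and Etv1, and without Isl1 when the replicate block was added) beside 7.44%. These counts too use the comparison that chose the list.

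The adjustment did not suit every member, which the spread between replicates showed. The SD of log2 CPM within groups went from 0.47 to 0.17 for Scrt1, from 0.71 to 0.32 for Tlx3, from 0.29 to 0.15 for Etv1, from 0.24 to 0.16 for Cux2, from 0.19 to 0.14 for Runx1 and from 0.14 to 0.07 for Isl1. For Prdm12 it went up from 0.10 to 0.24, and slightly up for Pou4f1 (0.20 to 0.22), Shox2 (0.19 to 0.20) and Runx3 (0.17 to 0.19). Prdm12 went from r = 0.54 with the GC slope to -0.73 after adjustment and Runx3 from 0.25 to -0.61, both past 0 to the other sign. Replicates were thus closer together before adjustment for Prdm12, and closer after it for Scrt1, Tlx3, Etv1, Cux2, Runx1 and Isl1. Pou4f1 held an r of -0.77 after adjustment, so its samples still followed the slope. Scrt1 went to 0.35, Cux2 to 0.30, Etv1 to 0.35, Isl1 to -0.08 and Runx1 to -0.16, while Tlx3 was still at 0.74.

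**Figure D4:**
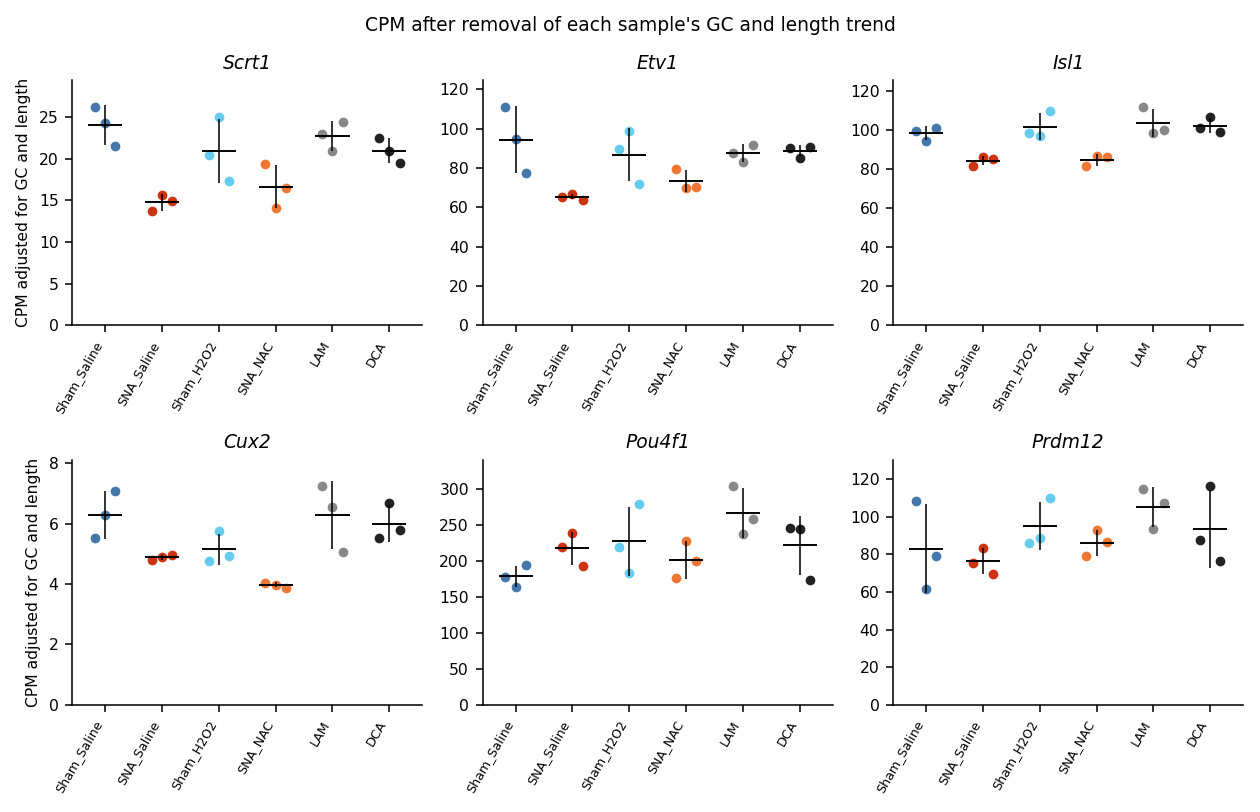
CPM of 6 members after removal of each sample's trend on GC share and transcript length, with group mean and SD (n = 3). Scrt1, Etv1 and Isl1 are lower in SNA_Saline than in Sham_Saline without overlap, while Prdm12 spreads from 61.4 to 109 within Sham_Saline.

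The second sciatic comparison, SNA_NAC against Sham_H2O2, used 6 samples outside the comparison that chose the list. Earlier results of these data were known when the list and tests were chosen. Injury, antioxidant and oxidant cannot be told apart in this comparison. All 10 members had a negative log2 fold change, with a median of -0.23 beside -0.00 over all genes, and a range from -0.41 (Scrt1) to -0.05 (Etv1). Leaving out 1 library turned the sign of 3 of them: Scrt1 was 0.02 and Tlx3 0.26 without Sham_H2O2 replicate 2, and Pou4f1 was 0.04 without Sham_H2O2 replicate 3. None was called by edgeR's quasi-likelihood test with Benjamini-Hochberg adjustment over all genes, which called 1.13% of them; the smallest adjusted p of a member was 0.534. At an unadjusted p under 0.05 the same test held 2 members, Isl1 and Prdm12, beside 9.25% of all genes, and DESeq2 called 0. In each of 3 members all injured samples were below all controls, beside 6.8% of all genes: Prdm12 (81.4, 75.6 and 79.1 against 84.6, 103 and 85.3 CPM), Shox2 (19.8, 22.1 and 21.3 against 28.6, 23.3 and 27.2) and Runx3 (6.71, 6.32 and 6.64 against 7.24, 9.19 and 7.47). In unadjusted values, the tighter ones for Prdm12, each injured pool was below the sham range in both sciatic pairs. The log2 fold change of Prdm12 was -0.47 in the first pair, which chose it, and -0.21 (SE 0.10, edgeR adjusted p = 0.536) in the second. In adjusted values its groups overlapped in both pairs, and the second gave -0.14 (SE 0.18).

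With GC and length offsets all members had negative values, some larger than that of Isl1 (Cux2 -0.41, Scrt1 -0.36), and only Isl1 was called. Isl1 stood at 81.3, 86.6 and 86.0 adjusted CPM in SNA_NAC and 98.6, 96.7 and 109.5 in Sham_H2O2, with all injured samples below all controls. The log2 fold change was -0.26 (SE 0.06), with an edgeR adjusted p of 0.0302 beside 3.79% of all genes called, and the adjusted p was 0.047 with the replicate block added. In the same fit none of the 10 sensory neuron markers was called. Of 5 satellite glia markers only Glul was called (0.40, edgeR adjusted p = 0.00462), and the median of that list was -0.01. Of the 5 macrophage markers in the table only Mrc1 was called (0.46, edgeR adjusted p = 0.0413), and that median was 0.06. Gfap, a glial filament gene listed here with the spinal cord markers, rose by 1.43 (edgeR adjusted p = 0.00881), beside a median of 0.39 in its list. The part of Glul, Mrc1 and Gfap in the value for Isl1 was not tested. The Isl1 call was lost with only the 6 samples in the fit (edgeR adjusted p = 0.134) and without Sham_H2O2 replicate 1 (0.0528) or 3 (0.103) or SNA_NAC replicate 1 (0.132), 2 (0.0728) or 3 (0.0825), with values from -0.21 to -0.28. Unadjusted, Isl1 had nearly the same log2 fold change, -0.25, with a larger SE of 0.12 and overlapping groups (79.4, 91.3 and 88.1 against 96.7, 90.2 and 122 CPM).

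Scrt1 and Cux2 gave lower values in the injured samples of this pair without passing the test. Scrt1 stood at 21.1, 11.2 and 15.5 CPM in SNA_NAC and 20.6, 31.1 and 10.8 in Sham_H2O2, and at 19.3, 14.1 and 16.5 against 20.5, 24.9 and 17.4 after adjustment. Its log2 fold change was -0.41 (SE 0.34, edgeR adjusted p = 0.767) and -0.36 with offsets (SE 0.13, adjusted p = 0.177), and the groups overlapped on both scales. Cux2 stood at 4.05, 3.98 and 3.88 adjusted CPM against 4.78, 5.75 and 4.93, with a log2 fold change of -0.41 (SE 0.15, edgeR adjusted p = 0.178). Together with Isl1, Runx3 and Shox2, Cux2 was among 4 members without overlap in adjusted values, all 4 lower. Of all 15730 genes, 1880 were lower in that way, and 22.3% were apart in either direction. With offsets 6 members had an unadjusted p under 0.05 (Scrt1, Cux2, Isl1, Runx1, Etv1 and Shox2), beside 15.9% of all genes. The others with offsets were Shox2 at -0.34, Runx1 at -0.29, Runx3 at -0.27, Etv1 at -0.25, Pou4f1 at -0.17, Prdm12 at -0.14 and Tlx3 at -0.04.

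Within the injured pair, SNA_NAC against SNA_Saline, no member was called by edgeR with or without offsets, where 0.0% of all genes were called, and 0 had an unadjusted p under 0.05, beside 2.0% of all genes without offsets and 3.53% with them. SNA_Saline also had a part in choosing the list. DESeq2 also called 0 members. Etv1 stood at 81.6, 85.3 and 83.8 CPM with NAC and 68.7, 77.7 and 55.7 with saline, all samples higher, with a log2 fold change of 0.31 (SE 0.21), or 0.17 (SE 0.11) with offsets. It was the only member higher without overlap, beside 9.24% of all genes. Adjusted Cux2 was lower without overlap, at -0.30 (SE 0.15), beside 8.0% of all genes. Isl1 differed by -0.01 (SE 0.12) and by 0.01 with offsets (SE 0.06).

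Between the sham groups, Sham_H2O2 against Sham_Saline, edgeR again called no member with or without offsets, beside 0.0% of all genes, and DESeq2 called 0. Of the 10 members 3 had an unadjusted p under 0.05 without offsets, beside 9.15% of all genes, namely Tlx3 (log2 fold change -1.33), Scrt1 (-0.76) and Cux2 (-0.52). Sham_Saline also had a part in choosing the list, and without its replicate 2 these values were -0.34, -0.34 and -0.41 and 0 members had an unadjusted p under 0.05. With offsets these values were -0.58, -0.16 and -0.25. In that fit 3 members, Tlx3, Runx3 (0.42) and Pou4f1 (0.34), had an unadjusted p under 0.05, beside 8.44% of all genes. Runx3 was 0.10 and Pou4f1 0.29 without offsets. Without Sham_Saline replicate 2, Tlx3 with offsets was -0.22. Scrt1 was thus 20.9 ± 3.81 adjusted CPM (SD, n = 3) in Sham_H2O2 and 24.0 ± 2.38 in Sham_Saline. Cux2 was lower without overlap in unadjusted values, at 4.79, 6.75 and 3.65 against 7.01, 8.55 and 7.06 CPM, beside 3.27% of all genes, and Runx3 was higher without overlap in adjusted values, beside 4.85%.

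Dorsal column injury gave no call among the members in either edgeR fit, beside 0.0% of all genes, and none by DESeq2. Without offsets the log2 fold changes of DCA against LAM ran from -0.26 (Pou4f1) to 0.77 (Tlx3), followed GC share across the 10 members (r = 0.84, a description), and 0 had an unadjusted p under 0.05, beside 5.04% of all genes. With offsets that r was 0.03. In that fit 1 member, Runx3 (-0.33, against -0.08 without offsets), had an unadjusted p under 0.05, beside 7.1% of all genes. Scrt1 stood at 22.5, 20.9 and 19.4 adjusted CPM in DCA and 22.9, 20.9 and 24.4 in LAM, Isl1 at 101, 107 and 99.1 against 112, 98.4 and 100.1, and Etv1 at 90.3, 85.3 and 91.0 against 87.9, 83.1 and 91.9. The log2 fold changes of these 3 were -0.12 (SE 0.13), -0.02 (SE 0.06) and 0.02 (SE 0.11). In unadjusted values all 10 members overlapped, beside 21.7% of all genes that did not, and in adjusted values Runx3 alone was lower without overlap, beside 8.23%.

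The sciatic and dorsal column responses were compared by the difference (SNA_NAC minus Sham_H2O2) minus (DCA minus LAM), in 12 samples outside the comparison that chose the list. The sciatic pair also differs by NAC and hydrogen peroxide, which cannot be told apart from the site of injury here. No member was called by edgeR, beside 0.331% of all genes without offsets and 1.21% with them, and DESeq2 called 0. The smallest adjusted p without offsets was 0.501, for Prdm12, whose difference was -0.33 (SE 0.14) and the 1 with an unadjusted p under 0.05, beside 9.58% of all genes. With offsets the difference for Prdm12 was 0.04 (SE 0.25). Across the 10 members the differences correlated with GC share at r = -0.90 without offsets and 0.14 with them, a description. With offsets 2 members, Isl1 and Runx1, had an unadjusted p under 0.05, beside 13.5% of all genes: Isl1 had -0.24 (SE 0.09, edgeR adjusted p = 0.255), Runx1 -0.36 (SE 0.15, adjusted p = 0.317) and Scrt1 -0.24 (SE 0.18, adjusted p = 0.601). A difference between these responses was not shown for any member.

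**Figure D5:**
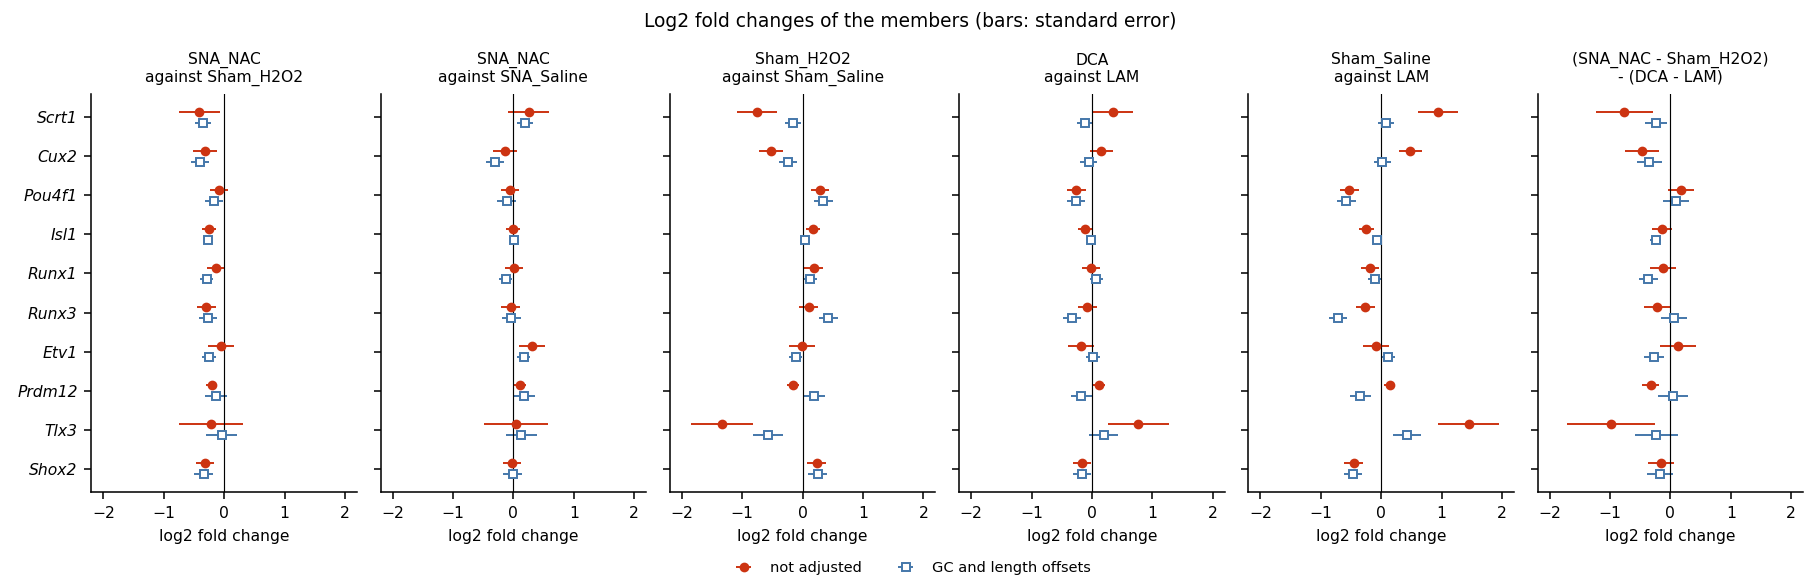
Log2 fold change of each member in 6 comparisons, with standard error, without adjustment (filled circles) and with GC and length offsets (open squares). In SNA_NAC against Sham_H2O2 all points lie below 0 on both scales. Scrt1 and Tlx3 change most between the scales in Sham_Saline against LAM (by -0.87 and -1.02). They also change in comparisons without Sham_Saline, such as DCA against LAM (by -0.47 and -0.58).

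The control operations also differed in these genes before adjustment. Against LAM, Sham_Saline had higher Scrt1 (0.95), Cux2 (0.48) and Tlx3 (1.45) and lower Pou4f1 (-0.53), Isl1 (-0.24) and Shox2 (-0.46), in each case without overlap; 16.4% of all genes were higher and 14.2% lower in that way. Without Sham_Saline replicate 2, Tlx3 was 0.47, Scrt1 0.54, Cux2 0.38, Pou4f1 -0.46, Isl1 -0.16 and Shox2 -0.39. None was called by edgeR, beside 0.0699% of all genes, with a smallest adjusted p of 0.104, and 5 had an unadjusted p under 0.05, beside 30.3% of all genes. DESeq2 called 2 (Tlx3 and Pou4f1), beside 7.25% of all genes, and edgeR without Sham_Saline replicate 1 called 5 (Etv1, Shox2, Tlx3, Pou4f1 and Scrt1), beside 31.8%. With offsets Scrt1 was 0.08, Cux2 0.02 and Isl1 -0.07, none was called beside 0.165% of all genes (3 had an unadjusted p under 0.05, beside 21.3%), and Pou4f1 (-0.58), Shox2 (-0.47) and Runx3 (-0.71, edgeR adjusted p = 0.0625) were lower without overlap, beside 14.6%. Without offsets Runx3 was -0.26 with overlapping groups, and its adjusted values ran against the GC slope (r = -0.61 over 18 samples). With offsets and without Sham_Saline replicate 1, Shox2, Runx3 and Prdm12 were called, beside 5.04% of all genes, and without Sham_H2O2 replicate 3 Runx3 was, beside 0.865%. Sham_Saline had a part in choosing the list, so these counts are no independent evidence. Pou4f1 stood at 193, 164 and 188 CPM in Sham_Saline, below every sample of LAM (294, 237 and 256), and by about the same log2 fold change on both scales. The offsets hardly moved this gene (factors of 0.95 to 1.08), and its adjusted values still followed the GC slope over 18 samples (r = -0.77). Every Sham_Saline slope was above every LAM slope, so slope and operation cannot be told apart for Pou4f1. The difference between operations in Scrt1 was within its spread after adjustment. Atf3 itself was higher in Sham_Saline than in LAM (log2 fold change 2.17, edgeR adjusted p = 4.09e-05).

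A list of other sensory neuron transcription factors was read in SNA_NAC against Sham_H2O2. Of 42 listed, 35 were in the table, and edgeR called 1 lower and 0 higher without offsets and 4 lower and 0 higher with them, beside 1.13% and 3.79% of all genes, with medians of -0.04 and -0.08 beside -0.00 and -0.03 over all genes. Pou4f3, a paralog of Pou4f1, fell on both scales: it stood at 14.01, 14.6 and 13.8 CPM in SNA_NAC and 22.5, 23.04 and 19.5 in Sham_H2O2, a log2 fold change of -0.62 (SE 0.13, edgeR adjusted p = 0.025). Isl2, a paralog of Isl1, fell with offsets, at 24.7, 28.04 and 23.6 adjusted CPM against 32.03, 37.01 and 42.8, a log2 fold change of -0.55 (SE 0.10, edgeR adjusted p = 0.00567). Ebf3 (-0.35, adjusted p = 0.0175) and Six4 (-0.31, adjusted p = 0.0272) also fell with offsets by edgeR, the first a helix-loop-helix factor and the second a homeodomain factor. The LIM pair Isl1 and Isl2 was thus lower in both, while Pou4f3 was called and Pou4f1 was not, a difference between paralogs that was not itself tested.

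Proteins that work with these factors and genes that mark neuron subtypes gave few calls. Of 15 RUNX, LIM and PRDM12 partner genes, all in the table, none was called by edgeR with or without offsets in SNA_NAC against Sham_H2O2, with medians of -0.15 and -0.17. The smallest unadjusted p was that of Tle3, a Groucho corepressor, at 33.9, 33.7 and 30.8 against 23.4, 26.7 and 18.1 CPM (log2 fold change 0.52, SE 0.15, edgeR adjusted p = 0.147). Lmo2, a LIM-only protein, came next, with a log2 fold change of -0.41 (SE 0.12, edgeR adjusted p = 0.183). Of 23 subtype genes, all in the table, 1 rose without offsets, and 2 rose and 1 fell with them, again beside 1.13% and 3.79% of all genes. Gfra1, the GDNF co-receptor, stood at 371, 383 and 378 CPM against 223, 189 and 168 and rose by 0.97 (SE 0.12, edgeR adjusted p = 0.000333). With offsets Gfra3, the artemin co-receptor, rose by 0.47 (edgeR adjusted p = 0.0128) and Gfra2, the neurturin co-receptor, fell by 0.31 (edgeR adjusted p = 0.00974). In the difference between injuries Gfra1 was called by edgeR as well (adjusted p = 0.0237), beside no call among the partner genes.

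The genes closest in pattern were taken for Scrt1, Cux2, Pou4f1 and Isl1. Over 18 samples of adjusted log2 CPM, among 12981 genes with a mean count of at least 50, Scrt1 was nearest to B3galt1 and Fam196b (Pearson r = 0.90 each), Cux2 to Bad and Gm9752 (0.86 each), Pou4f1 to Camta1 and Tbcc (0.97 each), and Isl1 to Syt7, a synaptotagmin (0.97), and Hip1 (0.95). These values describe likeness over samples that share 3 lanes and 6 groups. None of the nearest pair of any of these 4 members was among its 5 nearest without adjustment, whereas for Tlx3 both were. B3galt1 has a GC share of 40.1%, against 64.8% for Scrt1.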

How the data were processed

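Poly(A)-selected RNA was sequenced from 18 samples in 6 groups of 3. The authors deposited raw counts per gene (whole numbers, lowest mean 10.1 counts) and FPKM values per feature. The submitters' processing notes name TopHat2 2.0.12, Bowtie2 2.2.3, SAMtools 0.1.19, HTSeq 0.6.0 and build mm10. How strand was used in counting is not given in the sources used here. Per the labels' protocols, libraries were strand-specific and single-end, and the replicate number equals the lane (6 libraries on each of 3 lanes).

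Counts were tested here with edgeR 4.0.16 in R 4.3.3 (TMM, filterByExpr, glmQLFit, glmQLFTest, all 18 samples in one fit, no block). All 15730 genes passed the filter. P-values were adjusted by Benjamini-Hochberg over all genes, with a threshold of 0.05. Each SE was taken from F, as the size of the log2 fold change over the root of F. Offsets for GC share and length used natural splines with 5 degrees of freedom on the longest GENCODE M21 transcript, known for 15648 genes. Alternatives were DESeq2 1.42.0, no filter, at least 10 counts in every sample, only the groups compared, the replicate block, limma 3.58.1 on log2(FPKM + 1) and log2(FPKM + 0.1), an adjusted p under 0.10 and each sample left out. Offsets with each sample left out, and the correlations in 12 samples, were added after the data were seen. Permutation tests used 100000 resamples.

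Same-numbered samples share a lane and come from different mice. Their deviations from group means correlated at 0.16, -0.55 and 0.08 for SNA_NAC and Sham_H2O2, and at 0.24, 0.42 and 0.27 for Sham_Saline and LAM.

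The members, gene lists and tests were chosen with earlier results of these data known. Named genes were all members, up to 4 called genes per direction of each list (otherwise the 2 with the smallest p), and the nearest pair in pattern for 4 members. Methods were tested on simulated data.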

Additional observations from a re-analysis of the deposited data

How the results depend on the processing

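Without offsets, no member was called in SNA_NAC against Sham_H2O2 under any alternative run, each sample left out included. With GC and length offsets the count was 1 (Isl1), also with the replicate block, and 0 to 1 with each sample left out. In Sham_Saline against LAM it was 2 with DESeq2, 0 to 5 with each sample left out, and 0 to 3 with offsets and each sample left out. In the other tested comparisons it was 0 under all alternatives run. The replicate block alone changed no count of members called in a tested comparison, which stayed at 0.

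Some log2 fold changes turned sign. That of Prdm12 turned in Sham_H2O2 against Sham_Saline (-0.16; 0.19 with offsets, 0.20 with offsets and the replicate block, 0.19 to 0.43 with offsets and each sample left out, 0.25 and 0.24 of these without Sham_H2O2 replicate 1 or 2), in DCA against LAM (0.12; -0.18 with offsets, -0.18 with offsets and only the groups compared, -0.18 to -0.36 with samples left out, -0.26 without LAM replicate 2), and in Sham_Saline against LAM (0.14; -0.34, -0.35 with the block, -0.35 with only the groups compared, -0.28 to -0.58 with samples left out, -0.31 without Sham_Saline replicate 3, and -0.42 and -0.32 without LAM replicate 2 or 3). In SNA_Saline against Sham_Saline Prdm12 was 0.12 with offsets without Sham_Saline replicate 1. In the difference of responses Prdm12 was -0.33 without offsets and 0.04 with them. That of Scrt1 turned in DCA against LAM (0.35; -0.10 with offsets and only the groups compared, -0.12 to -0.18 with samples left out). In SNA_NAC against Sham_H2O2, Tlx3 (-0.21) was 0.18, 0.02 and 0.03 with offsets without Sham_H2O2 replicate 2 or SNA_NAC replicate 1 or 2. The cause was not tested.

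Over all genes, SNA_NAC against Sham_H2O2 gave 178 calls, 281 with DESeq2, 596 with offsets and 71 with only its groups, and Sham_Saline against LAM gave 11, or 1141 with DESeq2. Depth limits Tlx3 and Cux2, whose lowest counts were 10 and 23.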
